A study of Mus musculus with 9 samples.

Results

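Atf4 and 8 genes that act with it in the response of cells to amino-acid shortage were followed across bone marrow-derived macrophages left untreated or given interleukin-4 (IL-4) or interleukin-27 (IL-27). The set held Atf4, Atf5, Ddit3, Cebpg, Asns, Chac1, Trib3, Sesn2 and Ddit4, which are 9 of the 16200 genes of the counts table, and all 9 were found by symbol and passed the filter on low counts. The genes were chosen by name with results of these libraries already known, so the values that selected them include the differences between the 3 groups given here. The adjusted p-values of the members therefore set each difference against the spread between libraries and are a description of a chosen set.

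ATF4 is a basic leucine zipper transcription factor. Its messenger RNA carries upstream open reading frames that hold back translation until a kinase phosphorylates the initiation factor eIF2, as GCN2 does when uncharged transfer RNA accumulates and PERK does when proteins misfold in the endoplasmic reticulum. ATF4 pairs with C/EBP proteins on composite DNA elements in genes for amino-acid synthesis, transport and transfer RNA charging, and it also raises genes that limit growth and protein synthesis. In macrophages this programme is known from nutrient stress, and from cytokine and pathogen responses. RNA levels carry no measure of ATF4 protein.

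The cells were wild-type mouse marrow cells, cultured for 6 days with the supernatant of L929 fibroblasts, a source of macrophage growth factor. Of 9 polyA RNA libraries, 3 came from untreated cells, 3 from cells given IL-4 at 20 ng/ml for 12 h and 3 from cells given IL-27 at 100 ng/ml for 6 h. IL-4 acts through STAT6 and is the classical inducer of alternative activation. IL-27 is a relative of IL-12. The labels name both cytokines in 1 treatment text shared by all samples and leave unsaid whether the IL-27 cells also had IL-4. Cytokine, dose and time differ together between the treated groups and cannot be told apart. Nothing in the labels ties the replicates to separate mice or dishes, so the p-values reflect library-to-library spread, part or all of which may be technical.

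Library totals were 34577188 to 37951827 counts. The coefficient of variation of a gene between libraries of a group, the root of edgeR's common dispersion, was 0.165. Arg1, a gene that IL-4 is known to induce, stood at 472.5 ± 26.3 counts scaled to a common library total (CPM, TMM-normalised; mean ± SD, n = 3 here and below) in the IL-4 libraries, 5.26 ± 0.827 in the untreated and 0.109 ± 0.166 in the IL-27 libraries. All 11 macrophage markers were detected in each group, with sums of 24600 to 33840 CPM in the untreated, 15910 to 19910 in the IL-4 and 25880 to 28140 in the IL-27 libraries. Of these markers, 4 were lower with IL-4 and 5 with IL-27 than in untreated cells, and 0 were higher. Lymphocyte markers summed to at most 3.58 CPM. All 7 fibroblast markers were detected as well, with sums of 719 to 818 CPM in the untreated, 539.5 to 746 in the IL-4 and 1168 to 1463 in the IL-27 libraries. The 9 erythroid and endothelial markers summed to 7.37 to 9.76, 9.82 to 11.2 and 23.1 to 28.2 CPM in the same order. Of the 3 tested, 2 were higher and 1 lower with IL-27 than untreated. The endothelial markers Kdr and Cdh5 were 4.45-fold and 2.46-fold higher, and Pecam1, another, was 2.96-fold lower. Kdr alone held 23.7 ± 2.45 CPM in the IL-27 libraries, most of that sum. The part of these markers' cells in the results, Ddit4 included, was not tested. Untreated replicate 2 and IL-4 replicate 1 stood apart from the other libraries of their groups: the chi-square per gene of their counts against group mates was 79.95 to 100.9, against 4.99 to 7.97 in the other within-group pairs, and their deviations correlated at r = 0.900 across 9553 genes, which are not independent. Members that rest on these libraries are given with and without them. The 2 were picked out by their counts in these same data, and without them the untreated and the IL-4 group hold 2 libraries each.

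Promoter sequence shows where the composite element that ATF4 and C/EBP proteins bind could be read beside the members. The windows run from 250 bases before to 50 after each start site in RefSeq (build GRCm38.p6), and all 9 members matched by symbol. The core of the element was searched as TGATGNAA on both strands, and 3 of the 9 members held it (33.3%), against 4.51% of the 27025 genes with a window. The first 3 sequences below are those members. The next 3 are from Nupr1, Pycr1 and Slc7a11, other known ATF4 targets, and the last is the contrast from Hspa5, the endoplasmic reticulum chaperone BiP. Capitals mark the match, which in Nupr1 and Pycr1 is the longer form TGATGCAAT and in Hspa5 is the endoplasmic reticulum stress element, CCAAT and CCACG with 9 bases between. A capital run on the opposite strand reads as the reverse complement.
Asns, chr6:7693215-7693244, minus strand: gtcccagccacaTGATGAAActtcccgcac
Chac1, chr2:119350992-119351076, plus strand: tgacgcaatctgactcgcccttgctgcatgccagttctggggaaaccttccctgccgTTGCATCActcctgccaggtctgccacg
Trib3, chr2:152344031-152344054, minus strand: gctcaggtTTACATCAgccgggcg
Nupr1, chr7:126625562-126625591, minus strand: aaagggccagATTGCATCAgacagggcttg
Pycr1, chr11:120643818-120643876, minus strand: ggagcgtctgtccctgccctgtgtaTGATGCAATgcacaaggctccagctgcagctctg
Slc7a11, chr3:50443632-50443694, minus strand: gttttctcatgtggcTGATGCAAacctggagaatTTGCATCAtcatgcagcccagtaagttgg
Hspa5, chr2:34772020-34772048, plus strand: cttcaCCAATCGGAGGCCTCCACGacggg

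In Asns the match lay from -23 to -16 relative to the start site, in Chac1 from -193 to -186, and in Trib3 from 15 to 22 after the start. Slc7a11 held 2 matches facing each other. Among 21 other ATF4 targets with a window, 7 held TGATGNAA (33.3%), and among 17 genes of the ATF6 and XBP1 branches of the unfolded protein response, 1 did (5.88%). The longer TGATGCAAT, which contains the shorter core, was in 0 of 9 members, in 3 of the 21 other targets (14.3%) and in 0.222% of all genes. The endoplasmic reticulum stress element was in 0 of 9 members and in 8 of the 17 genes of the ATF6 and XBP1 list (47.1%), against 0.137% of all genes. These lists come from textbook knowledge that itself drew on such elements, so the shares are a description. CACGTG, an E-box that also binds other factors, was in 0 of 9 members, in 4 of the 21 other targets, in 2 of the 17 ATF6 and XBP1 genes (11.8%) and in 8.09% of all genes. For IL-4's own factor, TTC and GAA with 4 bases between, the spacing typical of STAT6, occurred in the Chac1 window alone among the members, against 8.01% of all genes. A match is a run of letters and not a site shown to be bound, and no match says only that the letters are not in this window.

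After IL-27, 8 of the 9 members were higher than in untreated cells and 0 were lower, at a Benjamini-Hochberg adjusted p under 0.05 by edgeR's quasi-likelihood test over 12587 genes. The background was 14.0% of all tested genes called higher and 15.1% called lower. After IL-4, 5 members were higher and 0 lower, on a background of 12.9% higher and 12.0% lower. In the direct comparison, 8 members were higher in IL-27 than in IL-4 cells and 0 were lower, with 18.8% of tested genes higher and 21.0% lower. The median log2 fold change of the 9 members was 1.88 for IL-27 against untreated, 0.73 for IL-4 against untreated and 1.42 for IL-27 against IL-4, where the medians of all tested genes were 0.00, -0.01 and 0.01. Since these comparisons took part in choosing the genes, nothing is read from the counts against the background. The counts of called markers and list genes from all 9 libraries, above and further on, stand beside these shares. The comparisons with untreated cells share the same 3 untreated libraries. In bulk RNA, fewer cells of a type and less RNA per cell cannot be told apart.

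**Figure D1:**
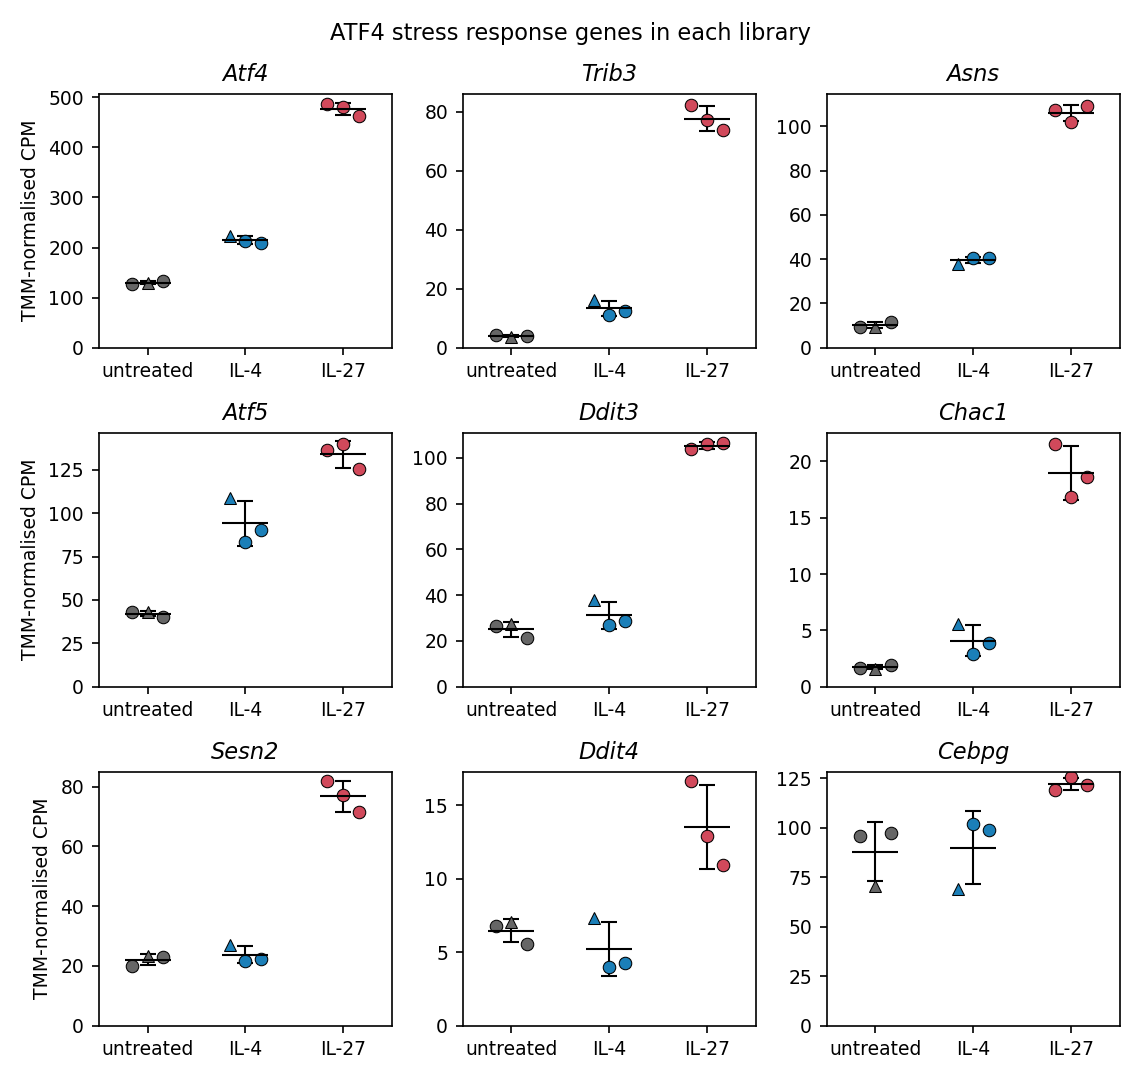
TMM-normalised CPM (linear axis from 0, its own scale for each gene) of the 9 members in each of the 9 libraries, with lines for mean ± SD in each group of 3. Triangles are untreated replicate 2 and IL-4 replicate 1. For every member the 3 IL-27 libraries lie above the other 6. The members were chosen with these differences known, and the share of all tested genes separated in this way was not computed. Nothing is therefore read from this separation as a property of the set.

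The transcription factors come first. Atf4 itself read 127, 128 and 133 CPM in the untreated libraries, 223, 214 and 209 in the IL-4 libraries and 488, 480.1 and 463 in the IL-27 libraries. The 3 groups did not overlap and formed 3 steps, untreated lowest and IL-27 highest. Atf4 rose 3.68-fold with IL-27 (log2 fold change 1.88 ± 0.07 SE, edgeR adjusted p = 2.81e-07) and 1.66-fold with IL-4 (0.73 ± 0.07, edgeR adjusted p = 7.78e-05). It was 2.22-fold higher in IL-27 than in IL-4 cells (edgeR adjusted p = 1.36e-06).

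Atf5, a relative of ATF4 whose messenger RNA is under similar translational control and which is linked to the mitochondrial stress response, stood at 42.8, 42.9 and 40.3 CPM untreated. IL-4 libraries held 109, 83.5 and 90.3 CPM of it, and IL-27 libraries 137, 139.7 and 125 CPM. Every IL-4 library was above every untreated one, and every IL-27 library above every IL-4 one. Atf5 rose 2.24-fold with IL-4 and 3.19-fold with IL-27 (edgeR adjusted p = 5.58e-05 and 4.85e-06), and the step between the cytokines, 1.42-fold, was the smallest of the 8 members called there (edgeR adjusted p = 0.00401). In an older annotation (GENCODE vM21), 4.11% of the exonic bases of Atf5 overlap Nup62 and Il4i1 on the opposite strand. Nup62, a nuclear pore gene, read 69.3 ± 14.1, 140.9 ± 34.5 and 108.5 ± 2.80 CPM in untreated, IL-4 and IL-27 cells, and Il4i1 was near 0 to 1.07 CPM. Since the strand used in counting is not given, reads from that stretch cannot be assigned between these genes.

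Ddit3 encodes CHOP, a C/EBP relative that is induced downstream of ATF4 and is known for its part in stress-induced death. Its levels were 26.4, 27.5 and 21.4 CPM untreated, 37.9, 27.0 and 28.7 CPM with IL-4, and 104, 106 and 106 CPM with IL-27. Untreated and IL-4 libraries overlapped, and the IL-27 libraries lay far above both. Ddit3 rose 4.20-fold with IL-27 (log2 fold change 2.07 ± 0.15 SE, edgeR adjusted p = 7.28e-06), and it was 3.38-fold higher in IL-27 than in IL-4 cells (edgeR adjusted p = 7.72e-06). For IL-4 the log2 fold change was 0.31 ± 0.14 with an edgeR adjusted p of 0.140, and without the 2 libraries that stood apart it was 0.22 with an edgeR adjusted p of 0.0331. In GENCODE vM21, 3.97% of the 1713 exonic bases of Ddit3 overlap the methionyl-tRNA synthetase gene Mars1 on the opposite strand. Mars1 read 38.3 ± 6.89, 68.2 ± 19.3 and 73.3 ± 0.105 CPM in untreated, IL-4 and IL-27 cells. The Ddit3 length implied by the deposited FPKM is 2432 bases, so the share that overlaps in the authors' annotation is not known.

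Cebpg encodes C/EBP gamma, a partner with which ATF4 forms dimers on the composite element. Untreated libraries held 95.8, 70.5 and 97.6 CPM, IL-4 libraries 68.9, 102 and 99.0 CPM, and IL-27 libraries 119, 126 and 122 CPM. The lowest values of the untreated and the IL-4 group were those of the 2 libraries that stood apart, and all 3 IL-27 libraries lay above the other 6. Cebpg was the member that was not called in any comparison: the log2 fold change was 0.47 ± 0.16 for IL-27 against untreated and 0.44 ± 0.16 for IL-27 against IL-4, with edgeR adjusted p of 0.0539 and 0.0558. Without those 2 libraries the same values were smaller, 0.33 and 0.27, and both passed (edgeR adjusted p = 4.89e-06 and 4.71e-05). That fit drops the lowest library of the untreated and of the IL-4 group, leaves 2 in each, and called more of all genes as well. With all libraries the log2 fold change for IL-4 against untreated was 0.03 ± 0.16 with an edgeR adjusted p of 0.909.

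Among the effector genes, Asns encodes asparagine synthetase, the textbook ATF4 target of amino-acid deprivation, and its promoter element is the Asns sequence given above. It stood at 9.18, 9.37 and 11.6 CPM untreated, 38.0, 40.4 and 40.4 CPM with IL-4, and 107, 102 and 109 CPM with IL-27. The 3 groups were widely separated, and neither of the libraries that stood apart was far from its group. Asns had the largest IL-4 fold change of the set, 3.93-fold (log2 1.98 ± 0.11 SE, edgeR adjusted p = 1.92e-06). It rose 10.5-fold with IL-27 (3.40 ± 0.12, edgeR adjusted p = 1.36e-07), and the step from IL-4 to IL-27 was 2.68-fold (edgeR adjusted p = 3.82e-06).

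Chac1 encodes an enzyme that cleaves glutathione, and it is induced by ATF4 together with CHOP and ATF3. Its untreated levels were 1.64, 1.60 and 1.95 CPM, its IL-4 levels 5.55, 2.87 and 3.84 CPM, and its IL-27 levels 21.6, 16.8 and 18.6 CPM. Groups did not overlap, and the highest IL-4 value came from replicate 1, which stood apart. Chac1 rose 2.35-fold with IL-4 (log2 1.23 ± 0.24 SE, edgeR adjusted p = 0.00448) and 10.95-fold with IL-27 (3.45 ± 0.25, edgeR adjusted p = 7.40e-06). Without both libraries the IL-4 log2 fold change was 0.90 (edgeR adjusted p = 0.000871). In the list of 11 other tested genes of glutathione turnover, 2 were higher and 2 lower with IL-27, where 14.0% of all tested genes were higher and 15.1% lower. Ggct, whose enzyme acts on the dipeptides that such cleavage releases, rose from 2.42 ± 0.558 to 5.19 ± 0.739 CPM (edgeR adjusted p = 0.00432), and Gsr, the glutathione reductase gene, was 1.97-fold lower (135 ± 11.9 against 68.7 ± 5.55 CPM, edgeR adjusted p = 0.000196). Gsr was 2.10-fold lower with IL-4 as well (64.2 ± 7.89 CPM, edgeR adjusted p = 0.000137), and it was not called between the cytokines (edgeR adjusted p = 0.538).

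Trib3, Sesn2 and Ddit4 encode inhibitors. Trib3 encodes a pseudokinase that binds ATF4 and CHOP and is known to limit their activity and that of AKT. It read 4.17, 3.74 and 4.10 CPM in the untreated libraries, 16.2, 11.2 and 12.6 CPM with IL-4, and 82.2, 77.0 and 73.7 CPM with IL-27. It had the largest IL-27 fold change of the set, 19.4-fold over untreated (log2 4.28 ± 0.15 SE, edgeR adjusted p = 2.18e-07), with no overlap between groups. Trib3 rose 3.33-fold with IL-4 (edgeR adjusted p = 2.72e-05) and was 5.82-fold higher in IL-27 than in IL-4 cells (edgeR adjusted p = 5.75e-07), also the largest such step of the set.

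Sesn2 encodes sestrin 2, a leucine sensor that holds back the growth kinase complex mTORC1. Its values were 19.9, 23.3 and 23.1 CPM untreated, 27.0, 21.8 and 22.4 CPM with IL-4, and 81.7, 77.2 and 71.4 CPM with IL-27. Untreated and IL-4 libraries overlapped in part, and the IL-27 libraries were all at least 71.4 CPM. Sesn2 rose 3.48-fold with IL-27 (edgeR adjusted p = 4.82e-06) and was 3.24-fold higher than with IL-4 (edgeR adjusted p = 2.50e-06), while its IL-4 log2 fold change was 0.10 ± 0.12 with an edgeR adjusted p of 0.571. Its paralogue Sesn1, a p53 target, fell 3.63-fold with IL-27, from 191 ± 26.8 to 52.6 ± 2.61 CPM (edgeR adjusted p = 5.70e-06). Sesn1 was lower with IL-4 as well, 1.49-fold, at 127.8 ± 15.45 CPM (edgeR adjusted p = 0.00655). Per length, Sesn1 stood at 56.6 FPKM (fragments scaled by gene length and library total) against 8.26 FPKM for Sesn2 in untreated cells, and at 15.5 against 28.4 FPKM in IL-27 cells, so Sesn1 was the higher of the paralogues untreated and Sesn2 the higher with IL-27.

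Ddit4 encodes REDD1, another mTORC1 inhibitor, which also answers to hypoxia and glucocorticoids. It held 6.76, 7.05 and 5.58 CPM untreated, 7.31, 3.99 and 4.27 CPM with IL-4, and 16.6, 12.9 and 10.97 CPM with IL-27. The IL-27 libraries lay above all others, the highest IL-4 value was that of replicate 1, and that library exceeded every untreated one. Ddit4 rose 2.09-fold with IL-27 (log2 1.06 ± 0.25 SE, edgeR adjusted p = 0.00910) and was 2.61-fold higher than with IL-4 (edgeR adjusted p = 0.00151). IL-27 replicate 1 held the highest Atf4, Ddit4, Chac1, Trib3 and Sesn2 of its group. The same library held the lowest Ddit3 and Cebpg and the middle value of Asns and Atf5. Its level of Dcn, a fibroblast marker, was the highest, at 48.0 CPM against 28.1 and 27.6 CPM in the other IL-27 libraries. Without IL-27 replicate 1 the IL-27 log2 fold change of Ddit4 was 0.89 (edgeR adjusted p = 0.0441). For IL-4 the log2 fold change was -0.32 ± 0.25 with an edgeR adjusted p of 0.395; without IL-4 replicate 1 it was -0.64 (edgeR adjusted p = 0.0387), and without both libraries that stood apart -0.57 (edgeR adjusted p = 0.0166).

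**Figure D2:**
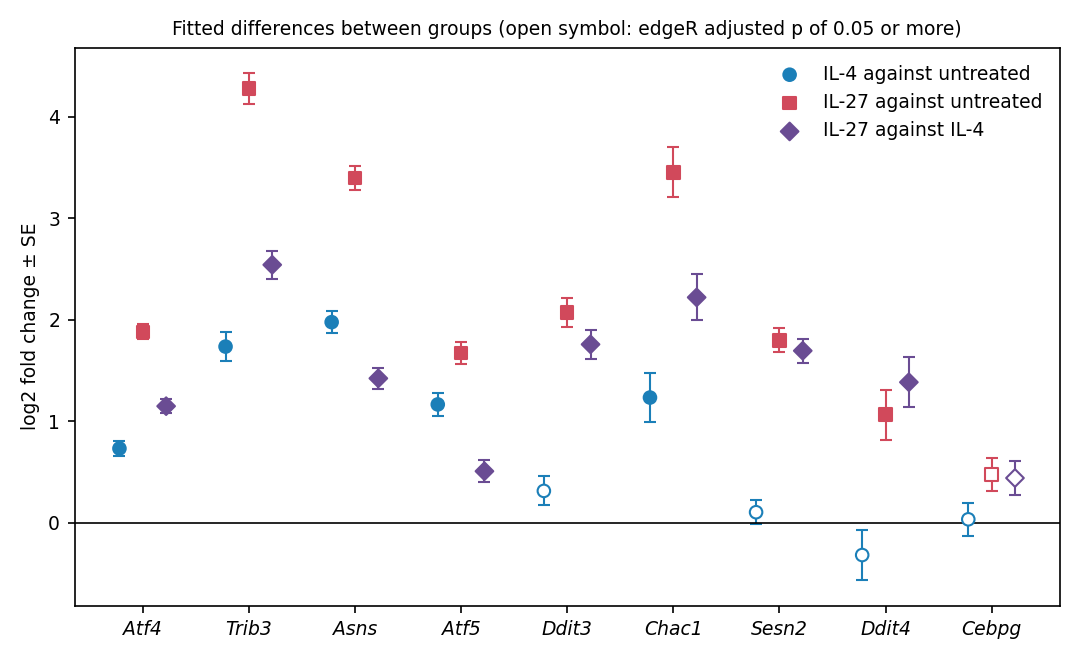
Log2 fold change ± SE from the edgeR fit (vertical axis) of the 9 members in the 3 comparisons; open symbols have an adjusted p of 0.05 or more. Trib3, Chac1 and Asns stand highest for IL-27 against untreated (4.28, 3.45 and 3.40), and Cebpg lies nearest 0 there (0.47).

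The order of the members by estimated fold change was not the same for both cytokines, and many neighbours in it had overlapping 95% intervals. For IL-27 against untreated the order was Trib3, Chac1 and Asns, with log2 fold changes of 3.40 and above, then Ddit3, Atf4, Sesn2 and Atf5 between 1.67 and 2.07, then Ddit4 and Cebpg. The 95% intervals of Ddit3 (1.71 to 2.43), Atf4 (1.70 to 2.06), Sesn2 (1.51 to 2.09) and Atf5 (1.40 to 1.94) overlapped, as did those of Trib3 (3.90 to 4.65) and Chac1 (2.85 to 4.05). That of Asns (3.12 to 3.68) lay within that of Chac1. For IL-4 the order was Asns, Trib3, Chac1, Atf5 and Atf4. There Chac1 (0.64 to 1.82) overlapped Asns (1.71 to 2.24), Trib3 (1.38 to 2.09), Atf5 (0.90 to 1.43) and Atf4 (0.555 to 0.908), and Asns overlapped Trib3. The other members, Ddit3, Cebpg, Sesn2 and Ddit4, were not called with IL-4. For these 4 genes the log2 fold change of IL-27 against IL-4 was 1.76 for Ddit3, 1.69 for Sesn2, 1.38 for Ddit4 and 0.44 for Cebpg, beside 2.07, 1.80, 1.06 and 0.47 against untreated cells.

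**Figure D3:**
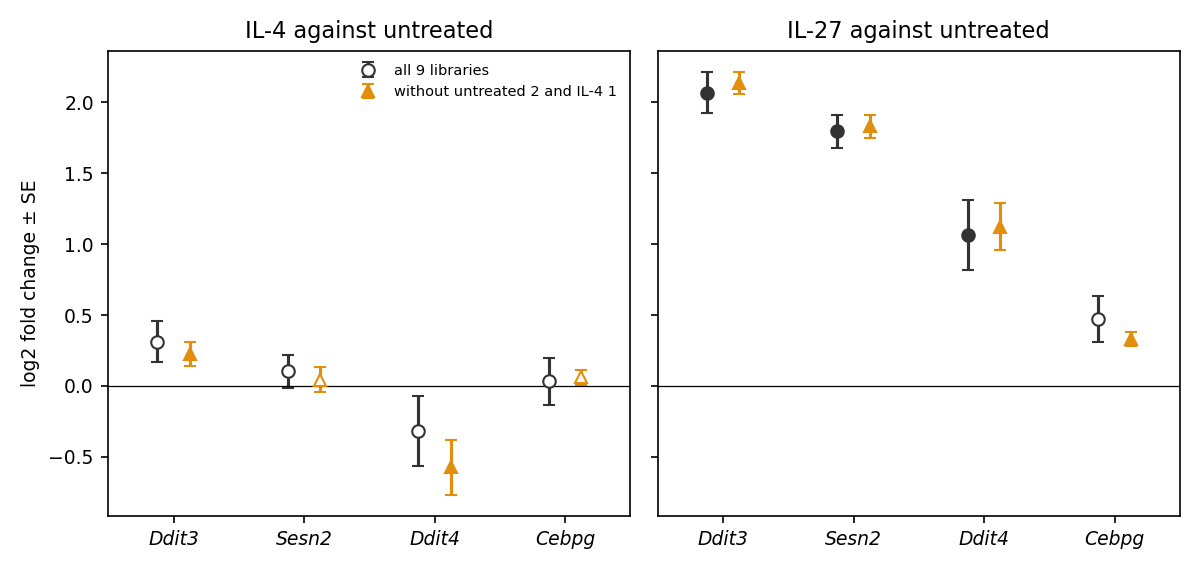
Log2 fold change ± SE of Ddit3, Sesn2, Ddit4 and Cebpg with all 9 libraries (circles) and without untreated replicate 2 and IL-4 replicate 1 (triangles), for each cytokine against untreated; filled symbols have an edgeR adjusted p under 0.05. Cebpg lies at 0.47 with all libraries and 0.33 without the pair for IL-27 against untreated, and Ddit4 at -0.32 and -0.57 for IL-4 against untreated.

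Without the 2 libraries that stood apart, 6 members were higher and 1 lower with IL-4, and all 9 were higher with IL-27 in both comparisons. Calls over all 12748 genes tested in that fit were also more frequent: 24.0% were higher and 22.3% lower with IL-4, 24.2% higher and 25.3% lower with IL-27, and 27.9% higher and 30.3% lower in IL-27 than in IL-4 cells. The list counts without these libraries given further on stand beside the same shares. The deviations of those libraries in the members ran from -0.46 (Cebpg) to 0.21 (Ddit3) on the log2 scale in untreated replicate 2. In IL-4 replicate 1 they ran from -0.54 (Cebpg) to 0.81 (Ddit4), with 0.73 for Chac1 and 0.08 for Atf4.

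Per length, Atf4 was the most abundant member in every group, at 89.3 FPKM untreated, 152 with IL-4 and 324 with IL-27. Atf5 came next, at 24.1, 55.3 and 75.7 FPKM. In untreated cells Chac1 and Trib3 were lowest, at 1.10 and 1.95 FPKM, with Ddit4 at 3.81 and Asns at 4.25 FPKM. In IL-27 cells Asns (44.1 FPKM), Ddit3 (42.6 FPKM) and Trib3 (37.2 FPKM) followed Atf5, and Cebpg, next after Atf5 in untreated cells at 18.8 FPKM, stood at 25.5 FPKM. Ddit4 was the lowest member there, at 7.88 FPKM. FPKM are the authors' values, so these orders rest on their gene lengths.

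Over the 9 libraries, the profile of Trib3 followed that of Atf4 most closely (Pearson r = 0.998 on log2 CPM), and the other genes most like Atf4 among 9421 genes were Slc7a5 (0.995), a subunit of a large neutral amino-acid transporter, and Nars (0.993), asparaginyl-tRNA synthetase. For Asns the closest gene was the cationic amino-acid transporter Slc7a1 (0.997), and for Atf5 it was Yars (0.997), tyrosyl-tRNA synthetase, with Aldh18a1 of proline synthesis and Mthfd2 of mitochondrial folate metabolism next. For Chac1 it was Trib3 (0.992). Ddit3 and Sesn2, whose untreated and IL-4 levels overlapped, lay closest to other genes: Inpp5b, Cracr2a and Pdgfa for Ddit3, and Rgl1, Plpbp and Irf1 for Sesn2. Irf1, an interferon regulatory factor gene, read 60.95 CPM in both untreated and IL-4 cells and 304.5 ± 18.1 CPM in IL-27 cells.

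Ddit4 was closest to Ltbp2 (0.980), Mmp2 (0.979) and Mrc2 (0.976), genes of extracellular matrix and its turnover that fibroblasts also express. Beside it stand the fibroblast markers: 5 of the 6 tested rose with IL-27, with a median log2 fold change of 0.91, and Dcn stood at 7.65 ± 1.81, 5.75 ± 0.611 and 34.6 ± 11.6 CPM in untreated, IL-4 and IL-27 cells. Lum, another fibroblast marker, was near 0 in all libraries. Cebpg was closest to Kpna3, Nus1 and Ube2w; its r with Atf4 was 0.700 over 9 libraries and 0.969 over the 7 without those that stood apart. These r values describe 3 group levels and the spread of 9 libraries that share their handling, and carry no test.

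Upstream of ATF4, the genes for the 4 eIF2 kinases were within 1.30-fold of their untreated RNA levels in both treated groups. Gcn2 (Eif2ak4) was 1.30-fold higher with IL-27 than in untreated cells, at 46.2 ± 2.32 against 35.5 ± 2.57 CPM (edgeR adjusted p = 0.0145). Hri (Eif2ak1) was lower with both cytokines, at 96.8 ± 2.27 CPM untreated, 80.8 ± 3.27 with IL-4 and 75.4 ± 3.20 with IL-27 (edgeR adjusted p = 0.0351 and 0.00673). Pkr (Eif2ak2) held 46.5, 43.6 and 44.0 CPM and Perk (Eif2ak3) 49.0, 43.5 and 43.9 CPM in the same order, and neither was called against untreated cells. Of all tested genes, 14.0% were higher and 15.1% lower with IL-27, and 12.9% and 12.0% with IL-4. Of 18 tested genes of the list of eIF2 kinases and regulators, 6 were higher and 1 lower with IL-27 (median log2 fold change -0.03), and 2 were higher and 2 lower with IL-4 (median 0.07). Without the 2 libraries that stood apart, 5 were higher and 5 lower with IL-4, and 7 were higher and 2 lower with IL-27. Impact, which restrains Gcn2, rose 1.54-fold with IL-27 and was 1.39-fold lower with IL-4 than in untreated cells (edgeR adjusted p = 0.00926 and 0.0366). Ppp1r15a (GADD34), which directs dephosphorylation of eIF2 and is itself raised by ATF4 and CHOP, rose 2.01-fold with IL-27, from 35.4 ± 3.27 to 71.3 ± 4.18 CPM (edgeR adjusted p = 0.000485).

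**Figure D4:**
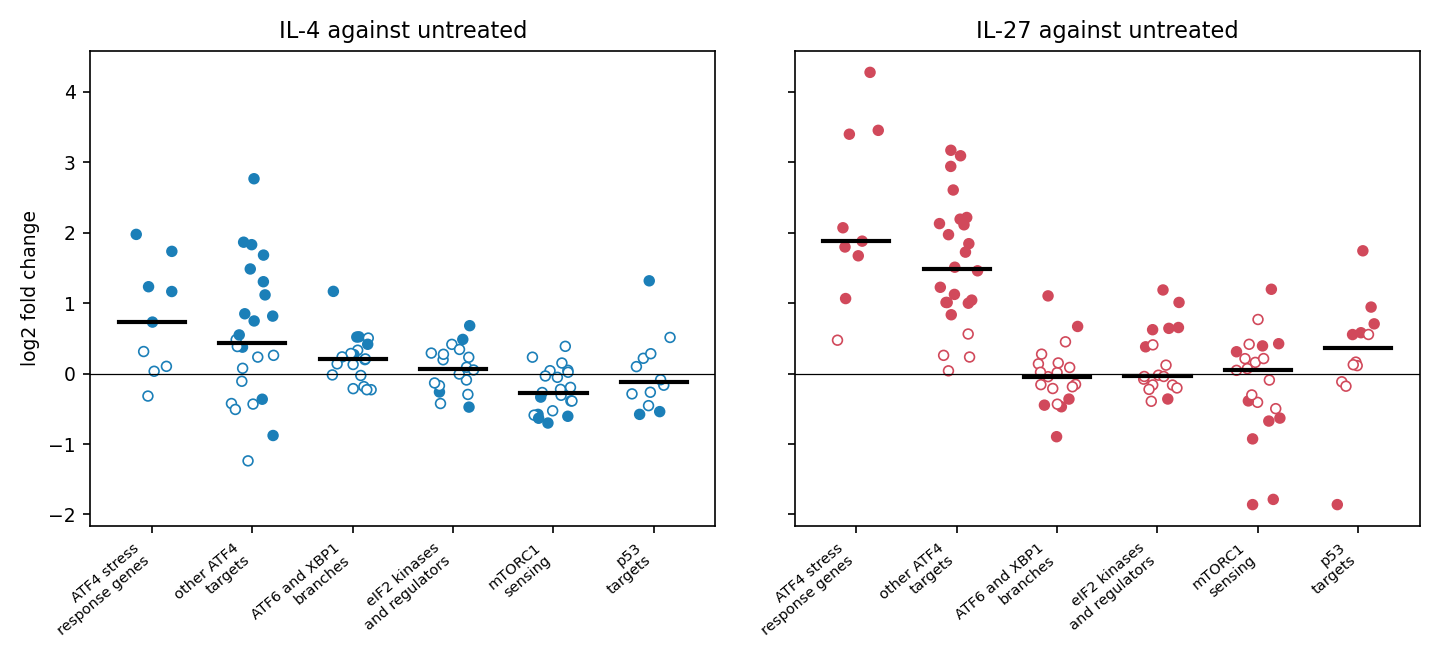
Log2 fold changes of the 9 members and of the tested genes in 5 lists of related pathways, 1 point per gene, for each cytokine against untreated; filled points have an edgeR adjusted p under 0.05 and black lines are medians. With IL-27 the median is 1.88 for the members and 1.49 for other ATF4 targets, and the ATF6 and XBP1 genes lie around 0 (-0.04).

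Of 24 other ATF4 targets tested, 20 were higher and 0 lower with IL-27 (median log2 fold change 1.49), 12 were higher and 2 lower with IL-4 (median 0.43), and 16 were higher and 4 lower in IL-27 than in IL-4 cells (median 1.04). Without the 2 libraries that stood apart, 4 in place of 2 were lower with IL-4. This list, too, was set with results of these libraries known. Amino-acid transporters were among the largest: Slc7a1 rose from 20.8 ± 1.10 to 187.5 ± 4.36 CPM with IL-27 and Slc7a5 from 13.3 ± 0.840 to 102 ± 5.18 CPM (edgeR adjusted p = 5.52e-08 and 1.19e-06). The cystine transporter gene Slc7a11, whose paired elements are printed above, was 5.01-fold higher in IL-27 than in IL-4 cells (184 ± 16.1 against 36.8 ± 6.64 CPM, edgeR adjusted p = 5.58e-06). The secreted stress cytokine Gdf15 was 4.85-fold higher in that comparison, and Nupr1, a stress-induced chromatin protein gene with the longer element, rose 4.57-fold with IL-27 over untreated (edgeR adjusted p = 3.52e-06 and 1.20e-05).

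Of the genes of serine synthesis, Phgdh and Psat1 rose 6.80-fold and 3.21-fold with IL-4 (edgeR adjusted p = 6.63e-06 and 2.84e-06), and both were lower in IL-27 than in IL-4 cells, by log2 fold changes of -1.04 and -0.68 (edgeR adjusted p = 0.000909 and 0.000315). Against untreated cells both were higher with IL-27, 3.30-fold and 2.00-fold (edgeR adjusted p = 7.9e-05 and 5.3e-05). IL-4 replicate 1, which stood apart, held 115 CPM of Phgdh, against 74.0 and 69.6 CPM in replicates 2 and 3. Psph, the gene for the last enzyme of that pathway, was highest with IL-27, at 7.36 ± 1.12, 13.3 ± 0.139 and 17.2 ± 1.05 CPM in untreated, IL-4 and IL-27 cells (IL-27 against IL-4, edgeR adjusted p = 0.0396). Atf3, a further leucine zipper gene of the pathway, held 587 ± 74.0, 761 ± 88.1 and 603 CPM in untreated, IL-4 and IL-27 cells; it rose 1.30-fold with IL-4 (edgeR adjusted p = 0.0385), and its IL-27 log2 fold change against untreated was 0.04. With Slc1a5, Stc2 and Eif4ebp1 it made up the 4 targets that were not called with IL-27.

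The other branches of the unfolded protein response held genes that went both ways. Of 19 tested ATF6 and XBP1 genes, 2 were higher and 4 lower with IL-27 (median log2 fold change -0.04), 5 were higher and 0 lower with IL-4 (0.21), and 3 were higher and 9 lower in IL-27 than in IL-4 cells (-0.28). Over all tested genes the shares were 14.0% higher and 15.1% lower with IL-27, 12.9% and 12.0% with IL-4, and 18.8% and 21.0% between the cytokines. Hspa5 fell from 630 ± 7.18 to 455 ± 21.1 CPM with IL-27 (edgeR adjusted p = 0.00105), and the disulfide isomerase gene Pdia4 stood at 67.9 ± 6.07, 152 ± 6.24 and 49.8 ± 4.44 CPM in untreated, IL-4 and IL-27 cells. The 2 genes that rose with IL-27 were Ern1, which encodes the sensor IRE1, and Herpud1 (2.15-fold and 1.59-fold, edgeR adjusted p = 1.45e-05 and 0.000324). Without the libraries that stood apart, 13 genes of this list were higher and 4 lower with IL-4, and 4 were higher and 8 lower with IL-27, in a fit where 24.0% and 22.3% of all genes were higher and lower with IL-4 and 24.2% and 25.3% with IL-27.

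Partners and rivals of ATF4 among the leucine zipper genes went both ways, as did all tested genes (14.0% higher and 15.1% lower with IL-27, 12.9% and 12.0% with IL-4). Of 19 partners and rivals tested, 7 were higher and 4 lower with IL-27, and 5 were higher and 3 lower with IL-4. Without those 2 libraries, 8 were higher and 3 lower with IL-4. Cebpb rose 1.73-fold with IL-27, from 159 ± 27.0 to 274 ± 7.99 CPM (edgeR adjusted p = 0.00138), and Jdp2 rose 3.71-fold (edgeR adjusted p = 2.72e-05). Batf3 was 6.52-fold higher with IL-4 and 3.21-fold lower with IL-27 than in untreated cells (edgeR adjusted p = 1.22e-05 and 0.000277).

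For the other pathways that reach Sesn2 and Ddit4, the lists were mixed. In the same fit, 14.0% of all tested genes were higher and 15.1% lower with IL-27, and 12.9% and 12.0% with IL-4. Of 21 tested genes of amino-acid sensing by mTORC1, 4 were higher and 6 lower with IL-27 (median log2 fold change 0.05), and 0 were higher and 5 lower with IL-4 (-0.27). Without those 2 libraries the counts were 8 higher and 8 lower with IL-27, and 3 higher and 6 lower with IL-4. Rragd and Rragc, which encode Rag GTPases that bring mTORC1 to the lysosome, rose 2.29-fold and 1.31-fold with IL-27 (edgeR adjusted p = 0.000124 and 0.00341) and were lower with IL-4. Among 12 tested p53 targets, 5 were higher and 1, Sesn1, was lower with IL-27 (median 0.36). With IL-4, 1 p53 target was higher and 2 were lower (median -0.13). Among 13 genes of hypoxia and the glucocorticoid response, 5 were higher and 4 lower with IL-27 (median -0.03): Vegfa rose 1.82-fold and Tsc22d3 1.56-fold, and Pdk1 was 2.44-fold lower (edgeR adjusted p = 0.000101, 0.00157 and 2.34e-05). With IL-4, 3 genes of the hypoxia and glucocorticoid list were higher and 5 lower (median -0.34). Vegfa was 3.07-fold lower with IL-4 than in untreated cells (edgeR adjusted p = 3.07e-06). Immediate early genes, which answer to handling as well as to signals, counted 0 higher and 5 lower of 12 with IL-27, and 4 higher and 1 lower with IL-4. Without those 2 libraries they counted 3 higher and 6 lower with IL-27, and 5 higher and 4 lower with IL-4. Among them Fos was 1.99-fold lower with IL-27 (edgeR adjusted p = 8.76e-05).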

How the data were processed

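PolyA RNA, extracted with TRIzol, was prepared for sequencing with a VAHTS kit, according to the labels' protocols. Deposited values are the authors' raw counts per gene, and HISAT2, HTSeq, fastp and GRCm39 appear per the submitters' processing notes, with no versions. Not given in the sources used here are settings, annotation and strand. The deposited FPKM are the same counts scaled by the authors by length and total, used here only for levels between genes.

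Counts of 9 libraries were fitted together in edgeR 4.0.16 (R 4.3.3) with a term for group, TMM factors and filterByExpr at a minimum count of 10, which kept 12587 of 16200 genes. Quasi-likelihood tests were adjusted by Benjamini-Hochberg over all tested genes and called under 0.05. SEs are the size of the log2 fold change divided by the root of the F statistic. The procedure was also run on simulated counts drawn independently for each library. These lack the shared deviation of the 2 libraries that stood apart, so that run cannot show how the fit handles it. DESeq2 1.42.0, other filters, GC offsets (GC content from GENCODE vM21 for 15650 genes, 96.6%), a replicate block and left-out libraries were alternatives.

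The members, lists and tests were chosen with earlier results of these data known. Named genes are the members, the eIF2 kinases, Ppp1r15a and Atf3. Also named are up to 5 genes per list and comparison with the smallest adjusted p under 0.05. For each member the 3 genes most like it are named (Pearson r on log2 CPM, mean of at least 5 CPM). Other genes (Arg1, Irf1's levels, overlapping genes, fibroblast markers, Kdr, Cdh5, Pecam1, Psph, Pycr1, Slc1a5, Stc2, Eif4ebp1) were named after their values were seen. Counts of Fgf21 were not analysed here, though its promoter is among the 21 searched. Promoter windows are from RefSeq and were searched on both strands. One motif that was searched is not reported here.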

Additional observations from a re-analysis of the deposited data

How the results depend on the processing

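Over 17 alternatives, 444 of 459 member results kept their side of the threshold, 15 gained a call and 0 lost one, and the 4 that turned sign were all Cebpg with IL-4, with neither value called (range -0.10 to 0.19). The count of members lower with IL-4 was 0, but 0 to 1 when 1 library was left out and 1 without both libraries that stood apart, the change being Ddit4; the cause was not tested. Cebpg was called in 5 of 17 alternatives for IL-27 against untreated (DESeq2 adjusted p = 0.0326) and in 7 of 17 for IL-27 against IL-4 (0.0417). Deviations of same-numbered untreated and IL-4 libraries correlated at -0.775, -0.797 and 0.666, and those of untreated and IL-27 libraries at 0.007, 0.061 and 0.049. For IL-4 and IL-27 the values were 0.030, -0.006 and 0.081. The 2 libraries that stood apart have different numbers and shape the first 3 values. Whether replicate numbers pair the samples therefore cannot be told from these r. With a replicate block the members called were again 5 with IL-4, 8 with IL-27 and 8 between cytokines. Over all genes, 1630 were higher and 1515 lower with IL-4; these became 3061 and 2848 without both libraries and 2578 and 2286 with GC offsets, and 984 were lower when only those groups were fitted. For IL-27, 1766 higher and 1904 lower became 3089 and 3224 without both libraries, and 2366 higher than with IL-4 became 3560. List counts without both libraries were chosen after seeing the data; other ATF4 targets higher with IL-27 went from 20 to 23. With only the 250 bases before the start site, 2 of 9 members held TGATGNAA and 3.45% of all windows did, against 3.97% of windows at full length, since the Trib3 match lies after it. Chac1, with 1.60 to 1.95 CPM untreated, was the member with the least depth.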
